A study of Mus musculus with 6 samples.

Results

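The 10 imprinted growth-control genes Igf2, H19, Meg3, Dlk1, Peg3, Plagl1, Cdkn1c, Grb10, Ndn and Mest were taken by symbol from a count table of 24421 genes, and all 10 were found and passed the filter on low counts. The table held 6 RNA libraries of primary neural stem cells of wild type C57BL/6 mice at postnatal day 60, cultured from the subventricular zone, a neurogenic lining of the lateral ventricles. All cultures received EGF and FGF2 at 20 ng/ml, and the medium was changed after 24 h. Of the libraries 3 come from cells given 20 µM PluriSIn#2, described by the submitters as a topoisomerase IIA inhibitor, for 3 days, and 3 from cells given DMSO as control. Groups were taken from the sample titles. For PluriSIn#2 replicates 2 and 3 the treatment field names another PluriSIn number than the title. A fit with PluriSIn#2 replicate 1 alone was therefore run as an alternative, and some of its values are given. Ratios of reads were not compared that way. Nothing in the labels says that replicates were separate cultures or animals. The p-values thus set group differences against a spread between these libraries that may be only technical, and may then be too small.

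Imprinted genes are expressed mainly from the allele of one parent, because DNA methylation set in the germ line differs between the alleles. Many of them act on growth: paternally expressed genes such as Igf2 tend to promote it, and maternally expressed ones such as Cdkn1c tend to restrain it. In the adult subventricular zone, Cdkn1c, Dlk1 and Igf2 are known as regulators of neural stem cell quiescence and self-renewal. The counts do not separate the alleles, so they speak of total transcript levels and not of imprinting.

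The members divided into 6 that rose, 3 that fell and 1 that did not pass the test. Igf2 rose the most, 19.9-fold, followed by Dlk1 (4.78-fold), Meg3 (3.54-fold) and H19 (1.83-fold), while Cdkn1c and Ndn rose by 19.6% and 12.7%. Mest fell the most, by 80.8%, then Grb10 by 76.2% and Peg3 by 36.8%, and Plagl1 was not called. The call of Cdkn1c was narrow and was lost in some alternative fits, as given below. At an adjusted p under 0.05, the authors' deposited table has 5 members higher, 3 lower and 2 not called. The DMSO and PluriSIn#2 libraries did not overlap for 9 members, beside 82.7% of all genes tested. These counts stand against a background in which 82.6% of 14417 genes tested were called, 41.7% higher and 40.9% lower, so a share of 9 called among 10 is near that of all genes. Changes of at least 2-fold were found for 5 of the 10 members and for 28% of all genes tested. The members' median log2 fold change was 0.22, beside 0.01 over all genes. In bulk libraries, fewer cells of a type and less RNA per cell cannot be told apart.

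**Figure D1:**
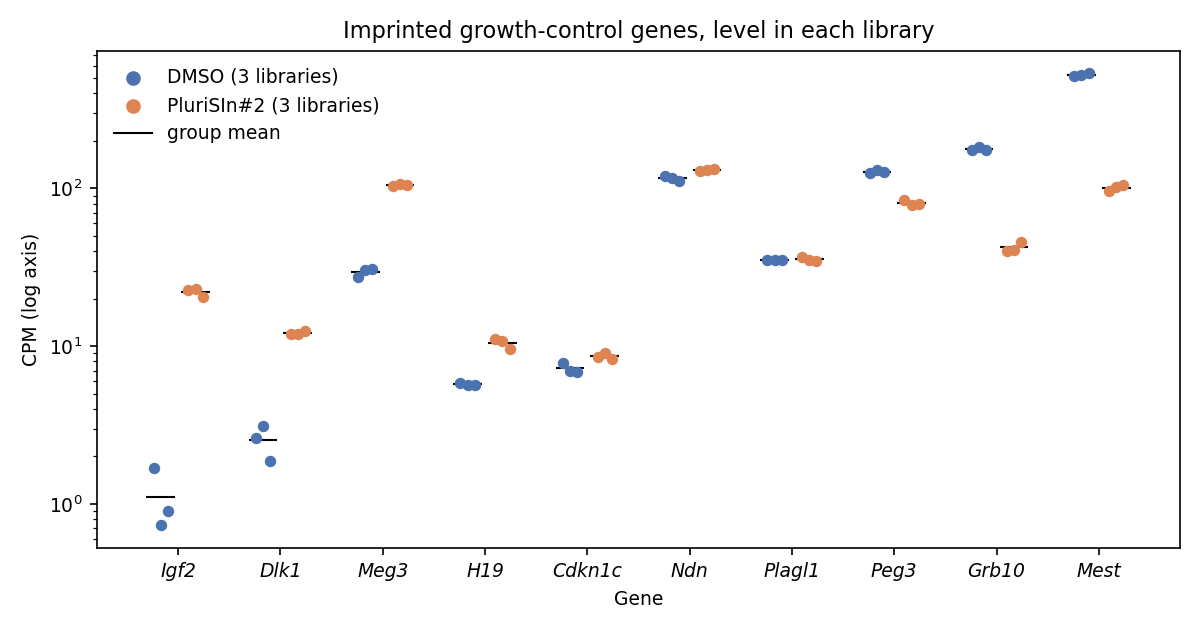
Level of each of the 10 genes in CPM (log axis) in the 3 DMSO and 3 PluriSIn#2 libraries, with group means as lines. Groups lie apart for 9 of the 10 genes (82.7% of all genes tested) and overlap for Plagl1; Igf2 goes from 1.11 to 22.0 CPM and Mest from 526 to 101 CPM.

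Libraries held between 16670962 and 19241869 counts. Top2a, the gene of the targeted enzyme, fell from 878 ± 21.2 to 6.01 ± 1.29 CPM (reads scaled to a common library size by TMM, a method that corrects for library composition; mean ± SD, n = 3 per group here and below). All 10 listed markers of neural stem cells were present in both groups, 3 of them higher and 7 lower in PluriSIn#2, with summed levels of 8269 to 8374 CPM in DMSO and 7644 to 7678 CPM in PluriSIn#2. Their most abundant, the intermediate filament gene Vim, stood at 2669 and 3061 CPM. Slc1a3 (1937 and 2707 CPM) and Gfap (42.0 and 300 CPM) also rose. Of the 7 that fell, 3 fell by at least 2-fold: Fabp7 (1677 and 716 CPM), Nes (1187 and 437 CPM) and Egfr (520.5 and 210.5 CPM). The sum, in which Vim and Slc1a3 weigh most in PluriSIn#2, thus hides changes in single markers. All 10 markers of dividing cells, of which Top2a is again 1, fell, from a summed 3882 to 3938 CPM to 102 to 112 CPM. Among all genes tested 40.9% were called lower. Mki67 was the most abundant of them in DMSO (1020 and 3.19 CPM) and Pcna in PluriSIn#2 (309 and 43.2 CPM). Markers of other cell types, most of which rose, are given below beside Igf2.

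To show where transcription of the most changed members starts, a promoter window of 300 bases is printed for the 3 largest rises, Igf2, Dlk1 and Meg3, and for the 3 falls, Mest, Grb10 and Peg3. Windows run from 250 bases before to 50 after an annotated start (RefSeq, GRCm38.p6), 5′ to 3′ on the gene's strand. Where a gene has several starts, the window with the most matches to the ZFP57 hexamer is shown, and counts per gene do not tell which start was used. Capitals mark the hexamer TGCCGC or its reverse complement GCGGCA, which the imprint guardian ZFP57 binds when methylated, and the octamer GGGGCCCC, which the zinc finger protein encoded by Plagl1 can bind.
Igf2, chr7:142661222-142661521, minus strand: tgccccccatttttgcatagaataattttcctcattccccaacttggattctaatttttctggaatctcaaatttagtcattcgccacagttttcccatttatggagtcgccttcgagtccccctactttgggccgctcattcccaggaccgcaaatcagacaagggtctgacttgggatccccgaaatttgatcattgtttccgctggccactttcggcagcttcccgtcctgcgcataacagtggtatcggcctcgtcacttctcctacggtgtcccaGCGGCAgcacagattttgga
Dlk1, chr12:109452573-109452872, plus strand: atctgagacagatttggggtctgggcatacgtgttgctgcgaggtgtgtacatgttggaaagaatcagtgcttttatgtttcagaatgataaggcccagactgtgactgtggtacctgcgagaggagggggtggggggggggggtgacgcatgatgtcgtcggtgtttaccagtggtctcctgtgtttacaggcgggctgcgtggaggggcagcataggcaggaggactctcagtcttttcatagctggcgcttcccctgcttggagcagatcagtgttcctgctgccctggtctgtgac
Meg3, chr12:109540746-109541045, plus strand: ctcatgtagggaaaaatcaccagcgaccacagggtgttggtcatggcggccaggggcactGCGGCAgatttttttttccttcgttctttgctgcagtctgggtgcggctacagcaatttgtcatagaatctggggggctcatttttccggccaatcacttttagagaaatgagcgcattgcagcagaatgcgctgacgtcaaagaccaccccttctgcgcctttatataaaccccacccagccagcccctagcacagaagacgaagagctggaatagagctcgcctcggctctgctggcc
Mest, chr6:30737800-30738099, plus strand: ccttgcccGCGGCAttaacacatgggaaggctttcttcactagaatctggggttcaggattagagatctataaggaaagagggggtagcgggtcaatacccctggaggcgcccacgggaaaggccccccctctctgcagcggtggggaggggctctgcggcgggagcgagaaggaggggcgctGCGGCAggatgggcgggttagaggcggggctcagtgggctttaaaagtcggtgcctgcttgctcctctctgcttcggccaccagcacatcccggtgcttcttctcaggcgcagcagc
Grb10, chr11:12037371-12037670, minus strand: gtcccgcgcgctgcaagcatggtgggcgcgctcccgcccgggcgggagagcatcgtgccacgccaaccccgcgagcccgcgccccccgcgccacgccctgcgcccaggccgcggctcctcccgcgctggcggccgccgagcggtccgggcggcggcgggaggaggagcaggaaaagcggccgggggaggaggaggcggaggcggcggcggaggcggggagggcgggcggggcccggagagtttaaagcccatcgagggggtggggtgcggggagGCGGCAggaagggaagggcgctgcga
Peg3, chr7:6730370-6730669, minus strand: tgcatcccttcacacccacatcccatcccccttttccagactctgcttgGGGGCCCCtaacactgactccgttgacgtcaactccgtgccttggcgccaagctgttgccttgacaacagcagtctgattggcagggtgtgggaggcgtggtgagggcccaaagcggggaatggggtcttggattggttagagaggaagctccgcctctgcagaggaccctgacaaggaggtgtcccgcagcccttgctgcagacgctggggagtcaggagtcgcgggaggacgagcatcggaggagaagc

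Of the 10 members 8 had promoter entries, with 15 windows, and H19 and Cdkn1c had none. The hexamer was found on either strand in 6 of the 15 member windows, belonging to 5 genes (Igf2, Meg3, Mest, Grb10 and Plagl1), and in 11.6% of all 32817 windows of this length. Of the 6, 2 are Mest windows that start 3 bases apart and hold the same letters, so the matches of Mest are counted once too often there. Mest had 2 matches in the window shown and 0 in that of its start farther upstream. Igf2, Meg3 and Grb10 also had other windows without a match. The hexamer itself holds a CpG, and the member windows with a match held 13 to 45 CpG dinucleotides, beside a median of 7 over all windows. The part of CpG number in the share of matches was not tested. The octamer, which is its own reverse complement, was found in 1 member window, that of Peg3, and in 1.07% of all windows. Over all their windows, CpG dinucleotides numbered 8 to 17 in Mest, 9 and 45 in Grb10 and 13 in Peg3, and 2 to 24 in Igf2, 9 in Dlk1 and 1 and 13 in Meg3, so falling and rising genes overlapped. The Grb10 window shown was at the 98.3rd percentile of all windows in CpG number and its other window at the 56.6th. A match is a description of the letters and not of binding, which was not measured.

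Igf2 encodes insulin-like growth factor II, a secreted growth factor that signals through the IGF1 and insulin receptors. It stood at 1.68, 0.732 and 0.907 CPM in the DMSO libraries, which rests on 30, 13 and 17 reads. With PluriSIn#2 it reached 22.6, 23.0 and 20.5 CPM, on 400, 420 and 349 reads. The lowest treated library was thus 12.2 times the highest DMSO library. The log2 fold change was 4.31 (SE 0.15, adjusted p = 1.82e-44, edgeR's quasi-likelihood F test, Benjamini-Hochberg adjusted over all genes tested, as for every single gene below). Its log2 fold change was at the 98.9th percentile of all genes. Igf2 occupies bases 142650766 to 142666816 of chromosome 7, minus strand (GRCm38, GENCODE). An annotated read-through gene, Gm49394, shares 3596 of its 5723 exonic bases on the same strand, and no source used here tells how reads of shared bases were counted.

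The rise of Igf2 came in the same libraries as rises of cell type markers. Igf2 is known to be made by the choroid plexus, the meninges and cells of blood vessels. Of 10 choroid plexus markers 9 were tested and all 9 rose, with a summed level of 28.1 to 31.6 CPM in DMSO and 555 to 575 CPM in PluriSIn#2. Ttr, which carries thyroid hormone and retinol-binding protein, made up most of the treated sum (1.89 and 501 CPM), and Enpp2 most of the DMSO sum (16.4 and 29.5 CPM). Of 10 fibroblast and meningeal markers 7 were tested, 6 rose and 1 fell, with sums of 58.8 to 65.3 and 183 to 191 CPM. Pdgfra, also a gene of oligodendrocyte precursors, made up most of the DMSO sum and fell from 56.9 to 4.91 CPM; without it the sums were 5.35 to 6.67 and 178 to 186 CPM. Col3a1, the most abundant in PluriSIn#2, rose from 0.629 to 61.5 CPM, while Slc22a6 had no read in DMSO. Of 5 tested mural markers 4 rose and 1 was not called (sums of 159 to 172 and 260 to 273 CPM, most of it Notch3), and of 9 tested endothelial markers 8 rose and 1 was not called (6.24 to 6.92 and 39.7 to 43.1 CPM). Among these Flt1 was the most abundant in DMSO (2.75 and 3.80 CPM) and Cdh5 in PluriSIn#2 (0.128 and 16.5 CPM). All 8 tested macrophage markers rose (2.48 to 2.91 and 147 to 151 CPM, with Lyz2 the most abundant), and Trem2 had no read in DMSO. Of 8 tested ependymal markers 7 rose and 1 fell (42.8 to 44.4 and 158 to 160 CPM), most of it Foxj1 (34.1 and 144 CPM). Of these, Dnah11 rose in CPM (0.881 and 2.44) but fell in FPKM as deposited by the authors (0.725 and 0.282). Rarres2 had 7.09 and 16.5 on that scale, far above what its 22 and 91 reads would give. The counts of both are thus uncertain. Of 10 neuronal markers 7 rose, 1 fell and 2 were not called, while their sum went down (965 to 1017 and 537 to 542 CPM) with Map2, the most abundant (892 and 383 CPM). Many of these markers passed the filter only through their treated libraries, which favours risers in the counts. Markers of the oligodendrocyte lineage went the other way. Of 10 listed, 8 were tested and all 8 fell (sums of 1197 to 1253 and 741.6 to 749.5 CPM, with Olig2 the most abundant). Among all genes tested 41.7% were called higher and 40.9% lower. The part of these cell types in the rise of Igf2 or of any other member was not tested.

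H19 is a long noncoding RNA of the maternal allele, lies 72.6 kb from Igf2 and shares enhancers with it. It stood at 5.83, 5.63 and 5.71 CPM in DMSO and at 11.2, 10.7 and 9.55 CPM in PluriSIn#2, with no overlap. The log2 fold change was 0.87 (SE 0.12, adjusted p = 3.52e-10). Igf2 and H19 thus both rose, but unequally. The within-library log2 ratio of Igf2 to H19 reads, which no library scaling can alter, was -1.78, -2.90 and -2.62 in DMSO and 1.01, 1.11 and 1.10 with PluriSIn#2. It rose by 3.50 with no overlap (exact permutation test, two-sided, p = 0.1, the smallest that 3 against 3 libraries can give; 0.125 adjusted over 5 pairs). Per length, H19 stood at 2.59 ± 0.0888 FPKM and Igf2 at 0.262 ± 0.120 FPKM in DMSO, and in PluriSIn#2 the genes overlapped at 5.29 ± 0.361 and 5.49 ± 0.332 FPKM (fragments scaled to gene length and sequencing depth, as deposited by the authors).

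Cdkn1c, which encodes a CIP/KIP inhibitor of cyclin-dependent kinases, lies 880 kb from H19 in the neighbouring imprinted domain of chromosome 7. It stood at 7.84, 6.92 and 6.88 CPM in DMSO and at 8.52, 9.05 and 8.32 CPM in PluriSIn#2. The groups lay apart, but the call was narrow (log2 fold change 0.26, SE 0.12, adjusted p = 0.0389). It was lost in 7 of 15 alternatives, among them DESeq2 (adjusted p = 0.107) and the fit with PluriSIn#2 replicate 1 alone (adjusted p = 0.203, in which that library is assumed to vary like the DMSO ones), and adjusted p over the alternatives ran from 0.00411 to 0.203. Cdkn1c shares 625 exonic bases with the antisense gene Gm44732, whose reads may be mixed in. The authors' deposited table does not call it either (adjusted p = 0.154). Its relatives moved by more: Cdkn1a rose from 344 ± 4.82 to 1419 ± 2.66 CPM (log2 fold change 2.05) and Cdkn1b fell from 153 ± 6.97 to 92.1 ± 3.23 CPM (-0.73).

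Dlk1 and Meg3 form the growth-related core of an imprinted domain of chromosome 12, 77.7 kb apart. Dlk1 encodes a transmembrane protein related to Notch ligands and is usually expressed from the paternal allele. It stood at 2.63, 3.10 and 1.87 CPM in DMSO and at 12.0, 11.9 and 12.4 CPM after treatment (log2 fold change 2.26, SE 0.14, adjusted p = 2.52e-26). Meg3, a maternally expressed long noncoding RNA, stood at 27.6, 30.5 and 31.0 CPM in DMSO and at 103, 107 and 106 CPM in PluriSIn#2 (1.82, SE 0.048, adjusted p = 2.66e-53). Meg3 shares 1228 exonic bases with the annotated gene Gm26906 on the opposite strand, so its reads may include those of that gene. In both genes every treated library was above every DMSO library. The log2 ratio of Dlk1 to Meg3 reads was -3.38, -3.29 and -4.03 in DMSO and -3.10, -3.17 and -3.08 in PluriSIn#2. It differed by 0.45, with the groups apart by less than the DMSO libraries differed among themselves (exact permutation test, two-sided, p = 0.1, the smallest possible; 0.125 adjusted over 5 pairs). The size of this difference rests on the DMSO libraries: it was 0.21 without DMSO replicate 3 and 0.59 without DMSO replicate 2. The maternally expressed noncoding RNA Rian (1.53) and the neighbour Begain (1.89) rose with them, on the log2 scale. Rtl1 and Dio3, the other genes of the domain usually expressed from the paternal allele, had 5 and 0 reads over the DMSO libraries. They had 13 and 14 over the treated ones, and were not tested.

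Mest encodes a membrane protein of the alpha/beta hydrolase fold and is paternally expressed. It was the most abundant member in DMSO, at 520, 522 and 536 CPM, and stood at 96.1, 102 and 105 CPM in PluriSIn#2. The log2 fold change was -2.38 (SE 0.029, adjusted p = 7.6e-80), at the 2.98th percentile of all genes. Its neighbour Copg2, a coat protein gene on the opposite strand, shares 912 exonic bases with Mest and fell from 90.1 ± 2.46 to 70.0 ± 1.37 CPM (-0.36). In deposited FPKM its fall was larger, from 83.2 ± 1.91 to 32.8 ± 0.851, so the gene length that its reads and FPKM imply was 1.06 kb in DMSO and 2.19 kb in PluriSIn#2, whereas that of Mest was 2.59 and 2.58 kb. How far Copg2 fell thus depends on the measure. No source used here tells whether reads were assigned by strand, so reads of these shared bases may be mixed.

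Grb10 encodes an adaptor protein that binds and dampens the insulin and IGF1 receptors. It is expressed from the maternal allele in most tissues and from the paternal one in neurons. It stood at 176, 182 and 174 CPM in DMSO and at 40.4, 40.9 and 45.5 CPM in PluriSIn#2 (log2 fold change -2.07, SE 0.040, adjusted p = 2.15e-63). No treated library came near the DMSO range. The receptor genes to which its product binds differed: Insr fell from 204 ± 3.14 to 136 ± 1.49 CPM, and Igf1r was not called (127 ± 5.57 and 121 ± 1.35 CPM). Igf2r, an imprinted gene of chromosome 17 whose product clears insulin-like growth factor II from the cell surface, rose slightly, from 135 ± 0.433 to 154 ± 2.89 CPM (log2 fold change 0.20). The log2 ratio of Igf2 to Igf2r reads rose by 4.17, from -6.98 ± 0.603 to -2.81 ± 0.0700, with no overlap (exact permutation test, two-sided, p = 0.1, the smallest possible; 0.125 adjusted over 5 pairs).

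Peg3 encodes a large zinc finger protein and is paternally expressed. It stood at 126, 131 and 127 CPM in DMSO and at 84.6, 78.6 and 79.1 CPM in PluriSIn#2 (log2 fold change -0.66, SE 0.038, adjusted p = 3.1e-29). The groups lay far apart. Usp29, a deubiquitinase gene whose annotated span begins 146 bases from that of Peg3 on the opposite strand, went the other way, from 1.75 ± 0.177 to 3.32 ± 0.628 CPM (0.92). The log2 ratio of Peg3 to Usp29 reads was 6.06, 6.11 and 6.34 in DMSO and 5.01, 4.41 and 4.41 in PluriSIn#2, lower by 1.56 on average, with the groups apart (exact permutation test, two-sided, p = 0.1, the smallest possible; 0.125 adjusted over 5 pairs).

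Ndn encodes necdin, a MAGE family protein that restrains division and is paternally expressed. It stood at 121, 116 and 112 CPM in DMSO and at 128, 131 and 133 CPM in PluriSIn#2, a small rise without overlap (log2 fold change 0.17, SE 0.035, adjusted p = 6.07e-06). Magel2, its relative 26.7 kb away, had 62 reads in each group and was not called. The log2 ratio of Ndn to Magel2 reads overlapped between the groups (6.67 ± 0.381 and 6.81 ± 0.417, exact permutation test, two-sided, p = 0.7, also after adjustment over 5 pairs). Of 7 other tested genes of this domain, Magel2 included, 5 fell, beside 40.9% of all genes tested. Peg12 (106 ± 0.841 to 28.5 ± 0.936 CPM) and Atp10a (18.7 ± 1.61 to 9.25 ± 1.05 CPM) were among the 5. Snrpn, a splicing protein gene, was called higher on 8 and 47 reads in all, a 6.06-fold rise in CPM. In deposited FPKM it stood at 18.4 ± 1.17 and 26.9 ± 0.0566, a smaller difference and a level far above what so few reads would give, so its counts are uncertain. Snurf, which shares its transcripts, had no read in the count table.

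Plagl1 encodes a zinc finger transcription factor that halts the cell cycle and is known to act on Igf2, H19 and other imprinted genes. It stood at 35.0, 35.1 and 35.2 CPM in DMSO and at 36.6, 35.1 and 34.6 CPM in PluriSIn#2, and the groups overlapped. The log2 fold change was 0.01 (95% interval -0.10 to 0.13, adjusted p = 0.819). Its family relatives of the same zinc finger group changed: Plag1 rose from 2.01 ± 0.579 to 4.58 ± 0.519 CPM and Plagl2 fell from 28.5 ± 1.95 to 16.0 ± 0.372 CPM.

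**Figure D2:**
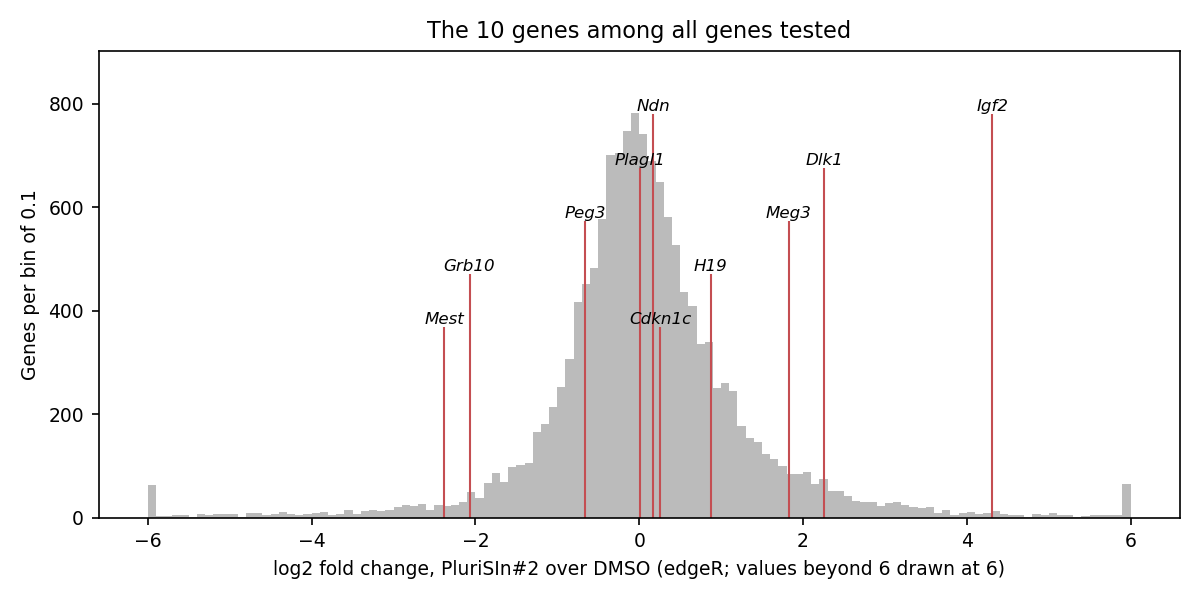
Log2 fold changes of PluriSIn#2 over DMSO for all 14417 genes tested (grey bars, genes per bin) with the 10 genes marked by red lines whose heights carry no meaning. Igf2 and Dlk1 lie in the upper tail at 4.31 and 2.26, Mest and Grb10 in the lower tail at -2.38 and -2.07, and Plagl1 near the middle.

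By parental origin, the 3 members usually expressed from the maternal allele (H19, Meg3 and Cdkn1c) were called higher, Cdkn1c only narrowly and not in 7 of 15 alternatives or in the authors' deposited table. Of the 6 usually expressed from the paternal allele, 3 rose (Igf2, Dlk1 and Ndn), 2 fell (Peg3 and Mest) and 1 was not called (Plagl1). Grb10 was placed in neither group because its allele depends on the tissue, and it fell (log2 fold change -2.07). If it were counted as maternal, as in most tissues, the maternal group would not all be higher. Among all genes tested 41.7% were higher and 40.9% lower, and with so few members this is a description. The counts do not tell which allele was used in these cells.

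The order of the members per length changed with treatment. In DMSO, deposited FPKM ran from Mest (198 ± 4.02) through Ndn (67.4 ± 2.63), Grb10 (33.4 ± 0.798), Peg3 (21.0 ± 0.461), Plagl1 (6.79 ± 0.0650) and Cdkn1c (3.56 ± 0.269) to Meg3 (2.65 ± 0.157), H19, Dlk1 (0.518 ± 0.128) and Igf2. Meg3 overlapped with H19, and Dlk1 with Igf2. In PluriSIn#2, Ndn came first (79.6 ± 1.50), followed by Mest (40.1 ± 1.64), Peg3 (14.4 ± 0.630), Meg3 (9.76 ± 0.130), Grb10 (8.33 ± 0.552), Plagl1 (7.04 ± 0.197), Igf2, H19, Cdkn1c (4.46 ± 0.192) and Dlk1 (2.59 ± 0.0637). There only Igf2 and H19 overlapped among neighbours in the order. On this FPKM scale the mean of Mest was 755 times that of Igf2 in DMSO and 7.30 times that in PluriSIn#2.

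Beyond the members, 36 genes of the same imprinted domains were listed, of which 34 were in the table and 23 were tested. Beside 41.7% of all genes tested higher and 40.9% lower, 10 of these rose, 10 fell and 3 were not called. Their median log2 fold change was 0.03. Among those called with a change of at least 2-fold and a mean of at least 1 CPM over both groups, Begain, Rian and the lipid transfer gene Osbpl5 (1.08) rose, and Kcnq1ot1 (-1.19), the noncoding RNA that silences the Cdkn1c domain, fell with Peg12 (-1.89) and Atp10a (-1.01). Under that mean, Mirg (1.94) and Snrpn (2.54) rose and Ddc (-2.27) and Hymai (-3.49) fell by at least 2-fold. The most abundant were the tetraspanin gene Cd81 (539 ± 4.92 to 879 ± 18.8 CPM), Nap1l4 (317 ± 8.66 to 278 ± 3.18 CPM) and Tssc4 (91.1 ± 5.51 to 154 ± 0.853 CPM).

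**Figure D3:**
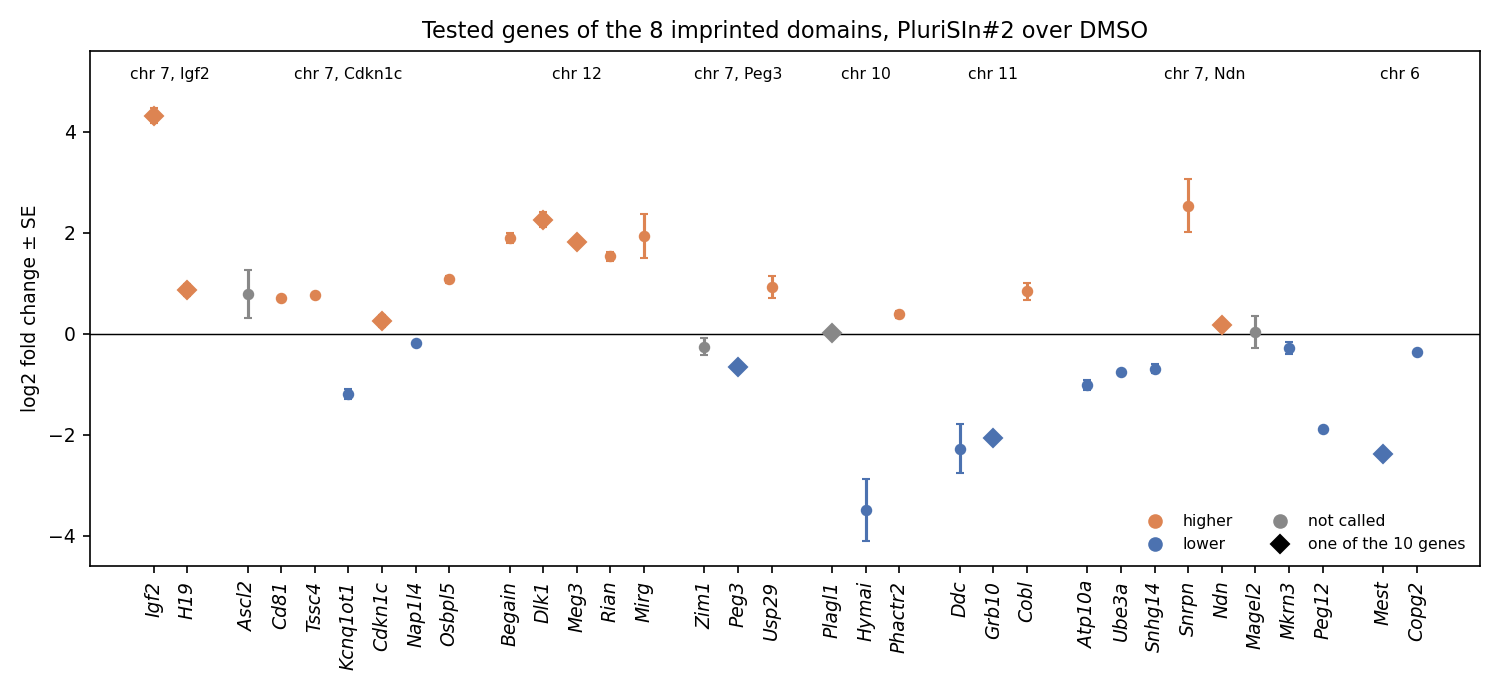
Log2 fold change ± SE (edgeR) of the 33 tested genes in the 8 domains that hold the 10 genes, grouped by domain; diamonds are the 10 genes and circles their neighbours. On chromosome 12 all 5 genes shown were higher, whereas the other domains with more than 2 genes shown held higher and lower or uncalled genes side by side.

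Imprinted genes of other domains were also divided: of 24 tested, 12 rose, 10 fell and 2 were not called (median 0.17). Nnat, a small membrane proteolipid of developing brain, fell from 297 ± 9.50 to 88.0 ± 1.13 CPM, while Blcap, the gene within whose span it lies, rose from 62.5 ± 3.02 to 145 ± 0.121 CPM. Peg10, a gene derived from a retrotransposon, fell from 198 ± 5.24 to 84.4 ± 0.778 CPM, and Nap1l5 fell from 65.1 ± 1.15 to 29.5 ± 0.446 CPM. Rasgrf1, an exchange factor for Ras, rose from 0.645 ± 0.0765 to 4.98 ± 0.722 CPM, and Zrsr1 rose from 12.1 ± 1.55 to 24.4 ± 2.01 CPM. Gnas, the most abundant, was not called (1453 ± 13.05 and 1443 ± 24.5 CPM), and Inpp5f rose from 159 ± 3.56 to 191 ± 2.54 CPM. Over all 57 imprinted genes tested, members included, 28 rose, 23 fell and 6 were not called, beside the 41.7% higher and 40.9% lower among all genes.

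**Figure D4:**
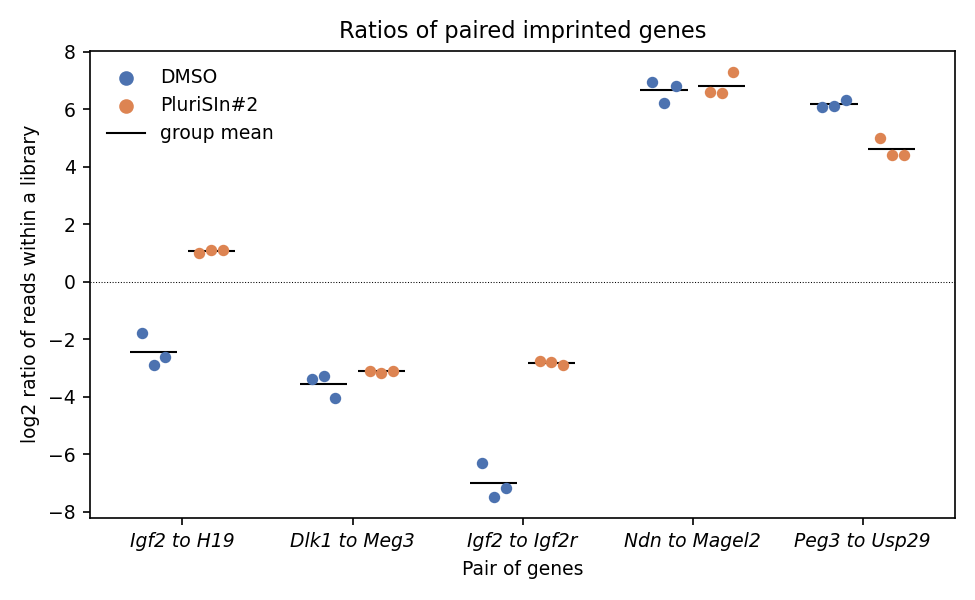
Log2 ratio of reads within each library for 5 pairs of imprinted genes, 3 DMSO and 3 PluriSIn#2 libraries each, with group means as lines. The ratio of Igf2 to H19 goes from -2.43 on average in DMSO to 1.07 in PluriSIn#2, and that of Ndn to Magel2 overlaps between the groups. Reads are not scaled to gene length, so a ratio of 0 does not mean equal levels.

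Genes that act with the members moved in both directions. Among 17 tested partners, 5 were called higher and 10 lower, with 2 uncalled (median -0.16). Beside this list and the maintenance genes below, 82.6% of all genes tested were called, 41.7% higher and 40.9% lower. Igf1, the other IGF ligand, rose from 1.05 ± 0.212 to 14.1 ± 1.90 CPM (log2 fold change 3.75), and Igf2bp3, which encodes a protein that binds Igf2 mRNA, fell from 87.1 ± 1.91 to 25.7 ± 0.457 CPM (-1.76). Nedd4, a ubiquitin ligase to which the Grb10 protein binds, fell from 1574 ± 22.1 to 860 ± 19.6 CPM (-0.87). Of 13 tested genes that maintain imprints 12 fell and 1, the de novo methyltransferase gene Dnmt3a, rose (283 ± 7.86 to 314 ± 0.448 CPM; median of the list -0.95). Uhrf1 (-5.29) and the maintenance methyltransferase gene Dnmt1 (-2.41), which copy methylation at replication, fell in the same libraries as the markers of dividing cells. Trim28 (-1.19), the corepressor that ZFP57 recruits, and the chromatin remodeller gene Atrx (-0.95) fell too. The part of reduced division in these falls was not tested.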

How the data were processed

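Counts per gene symbol were deposited by the authors as whole-number reads, not normalized. STAR, HTSeq, DESeq and mm10 were used per the submitters' processing notes; no source used here gives versions, annotation or strand setting. The deposited FPKM table holds values the authors normalized for gene length and depth, the authors' log2 fold changes and the authors' p-values; 25 gene names turned into dates were left out.

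Counts were tested in R 4.3.3 with edgeR 4.0.16 (filterByExpr, TMM, quasi-likelihood F test, two-sided, group as the only term, Benjamini-Hochberg over 14417 genes, threshold 0.05). The SE is the absolute log2 fold change divided by the square root of F. CPM uses library totals times TMM factors (0.975 to 0.978 in DMSO, 1.02 to 1.03 in PluriSIn#2), so 3 reads equal 0.160 to 0.176 CPM. Ratios had 0.5 reads added to each count. DESeq2 1.42.0, limma 3.58.1 on log2(FPKM + 1) and log2(FPKM + 0.1), other scalings and filters, a replicate block and leaving out each library were alternatives. Scripts were tested on simulated data.

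A chi-square statistic per degree of freedom was 1.56 to 2.22 between replicates, so none was a copy. Members and lists were chosen with earlier results of these data known. The rule named the 10 members, imprinted genes called with at least 2-fold change and a mean of 1 CPM, the 3 most abundant of each imprinted list, the 4 partners and 4 maintenance genes with the smallest p, the most abundant marker of each list by mean CPM, markers at 0 and Top2a. Cdkn1b, Insr, Igf1r, Plag1, Plagl2, Copg2, Rtl1, Dio3, Snrpn, Mirg, Ddc, Hymai, Pdgfra, Enpp2, Flt1, Pcna, Snurf and Dnmt3a were added after their values were seen. So were Slc1a3, Gfap, Fabp7, Nes, Egfr, Dnah11 and Rarres2. Of 36 domain genes Apeg3 was matched by its synonym Peg3os, and Zfp264 and Copg2os2 were not matched. All 8 tested oligodendrocyte lineage markers fell, as given above beside Igf2. Coordinates are from GENCODE M21 on GRCm38, the build also called mm10.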

Additional observations from a re-analysis of the deposited data

How the results depend on the processing

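Igf2, H19, Meg3, Dlk1 and Ndn stayed higher and Mest, Grb10 and Peg3 stayed lower, each at an adjusted p under 0.05, in all 15 alternatives, of which that with PluriSIn#2 replicate 1 alone takes its spread from the DMSO libraries only. Without 1 library, 5 to 6 members were called higher and 3 lower. Igf2 ran from 4.09 to 4.73 there, and was 2.37 on log2(FPKM + 1), where Dlk1 was 1.25; that scale understates changes of low genes. Cdkn1c lost its call with DESeq2, without a low-count filter (adjusted p = 0.0505), without DMSO replicate 2 or 3 or PluriSIn#2 replicate 1 or 2, and with PluriSIn#2 replicate 1 alone; the cause was not tested. Plagl1, never called, ran from -0.012 (without PluriSIn#2 replicate 1, the single reversal) to 0.028 without 1 library. The change of the Ndn to Magel2 ratio ran from -0.092 to 0.287 without 1 library, negative without DMSO replicate 2 (-0.069) or PluriSIn#2 replicate 3; that of Dlk1 to Meg3 ran from 0.215 to 0.589. Maintenance genes called higher were 2 without a filter, which tests more genes, and partners called higher were 3 with PluriSIn#2 replicate 1 alone, which has fewer samples.

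With a replicate block 6 members were higher and 3 lower, and 5984 and 5867 of all genes. Same-numbered libraries did not deviate together (correlations 0.013, 0.029 and -0.003). Counting noise, which is independent between libraries, may make up much of these deviations. Such low correlations thus do not tell whether the numbers pair the libraries. Igf2 and Dlk1 rest on few DMSO reads (60 and 137 in all), which limits their folds.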
